A study of Mus musculus with 2 samples.

Results

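Nephron progenitors that had not started to form a nephron were picked out of newborn mouse kidney as single cells holding RNA of both Six2 and Cited1. A cell barcode was kept at 3000 UMIs or more (unique molecular identifiers, each standing for 1 captured RNA molecule), at 500 genes or more, and with at most 20% of its UMIs from mitochondrial genes. A kept cell was a member with at least 2 UMIs of Six2 and at least 2 of Cited1, 0 UMIs of Wnt4, Lhx1 and Pecam1, and at most 2 of Col3a1. The rule chose 417 of 9735 cells: 235 of 5529 in replicate 1 (4.25%, 95% exact binomial interval 3.73 to 4.82%) and 182 of 4206 in replicate 2 (4.33%, interval 3.73 to 4.99%), a mean of 4.29% ± 0.0543 (SD, n = 2). Intervals here and below cover counting error only.

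The series held 2 droplet single-cell RNA libraries of kidney at postnatal day 0, and both carried the same genotype, Rbpj c/+ ; Foxd1cre/+. As written, this is a single conditional copy of Rbpj, the DNA-binding partner of the Notch receptors, with a Cre recombinase at Foxd1, a gene of the stromal progenitors that surround the nephron progenitors. No other genotype was analysed here, so every comparison below is between sets of cells within these kidneys and says nothing about the allele. The labels do not say whether a library is 1 animal or a pool, nor that the libraries come from separate animals. The p-values come from a model that sets aside the shift between the libraries. They measure only how unevenly differences between sets of cells repeated in these 2 libraries, and that spread may be technical.

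Nephron progenitors form a cap of mesenchyme around each tip of the branching ureteric bud. Six2 holds them in the progenitor state, and Cited1 marks the cells that have not yet responded to the inducing Wnt signal. Signals from the bud and the stroma then start Wnt4 and Lhx1, the cells lose Cited1, gather into aggregates and turn into the epithelium of a new nephron. FGF and BMP signals keep the pool alive, while GDNF from the cap and its neighbours drives the bud to branch.

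The 2 matrices held 200331687 and 173166168 UMIs, and kept cells had medians of 15016 and 20007.5 UMIs (here and below, paired values are replicate 1 and then replicate 2). Members had medians of 17300 and 24049 UMIs and of 4763 and 5782 genes, with 5.28% and 4.73% of UMIs mitochondrial. A doublet caller marked 245 and 142 of all kept cells, 7 and 2 of them members, and these were left in. Members ranged from 3255 to 130636 and from 3332 to 116227 UMIs. The 2 libraries shared 6 cell barcodes. The libraries differed in makeup: by the rules given below, committing cells were 5.17% and 2.45% of kept cells, early nephron cells 7.70% and 3.83%, and stroma 3.47% and 7.25%, with intervals that did not overlap. No value here tests a label.

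Six2 (chr17:85684277-85688274, minus strand, GRCm38) had a median of 5 and 6 UMIs per member, and Cited1 (chrX:102247381-102252181, minus strand) 13 and 18. The rule chose the cells on these genes, so their values are a description with no test. At the edge of the rule, 50 and 22 members held exactly 2 UMIs of Six2 or of Cited1. Just outside it, 32 and 13 cells missed by having 1 Six2 UMI, 6 and 7 by having 1 Cited1 UMI, and 58 and 25 by holding 1 Wnt4 UMI. Of all cells with at least 2 UMIs of both genes, 503 and 305 in number, 132 and 38 missed the rule only by holding at least 2 Wnt4 UMIs. The 250 bases before the start of Six2 (chr17:85688255-85688504, minus strand) and before the outermost of 3 listed starts of Cited1 (chrX:102252182-102252431, minus strand) are shown because these 2 genes define the cells. They are read 5′ to 3′ from RefSeq on GRCm38.p6, with capitals for a motif match named after them.
Six2: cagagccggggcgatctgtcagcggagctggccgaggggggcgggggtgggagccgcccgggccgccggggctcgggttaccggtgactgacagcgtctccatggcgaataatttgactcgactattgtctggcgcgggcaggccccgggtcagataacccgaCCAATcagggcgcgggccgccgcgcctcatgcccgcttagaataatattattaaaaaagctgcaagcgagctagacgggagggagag
Cited1: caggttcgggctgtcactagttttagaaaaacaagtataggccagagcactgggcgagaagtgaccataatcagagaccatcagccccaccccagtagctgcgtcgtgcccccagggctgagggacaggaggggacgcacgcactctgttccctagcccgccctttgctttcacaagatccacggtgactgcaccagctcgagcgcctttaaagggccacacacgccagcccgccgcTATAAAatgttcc
Each motif was searched on both strands, and no matches overlapped. The first was TATAAA, which places the start of transcription in many genes, and Cited1 held it in the window shown. The promoter element CCAAT was the next, and Six2 held it. The last was the core bound by LEF factors, spelled CTTTGAT, which neither window held. Among 32851 mouse promoter windows of the same length, the first was found in 12.4%, the next in 33.8% and the last in 3.21%.

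To describe the members, the UMIs of all cells in a set were summed per library and given as counts per 1000000 UMIs of that sum (CPM), and 6 other sets were built with the same kind of rule. They were Six2 cells with no Cited1 UMI (10 and 9 cells), committing cells with Six2 and at least 2 Wnt4 UMIs but no Lhx1 (286 and 103), early nephron cells with Wnt4 and Lhx1 (426 and 161), stroma with Foxd1 and Col3a1 (192 and 305), ureteric tip with Ret and Wnt11 (43 and 34), and endothelium with Pecam1 and Cdh5 (677 and 599). The committing rule set no limit on Cited1, and 60.5% and 47.6% of committing cells held a Cited1 UMI. The 132 and 38 cells that missed the member rule only by at least 2 Wnt4 UMIs belong to this set. The 3 and 12 cells that met the rules of both early nephron and tip were left out of the sums, which held 423 and 149 early nephron cells and 40 and 22 tip cells. No member met another set's rule, an outcome that the rules themselves fix for every set but the tip. Differences come from 1 model over the 14 sums with the library as a block, and a gene is called at an adjusted p under 0.05 (edgeR's quasi-likelihood test with Benjamini-Hochberg adjustment over 15437 genes). The 10 genes used to build sets were left out of the tests. In a sum of cells, fewer cells with a transcript and less RNA per cell cannot be told apart.

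**Figure D1:**
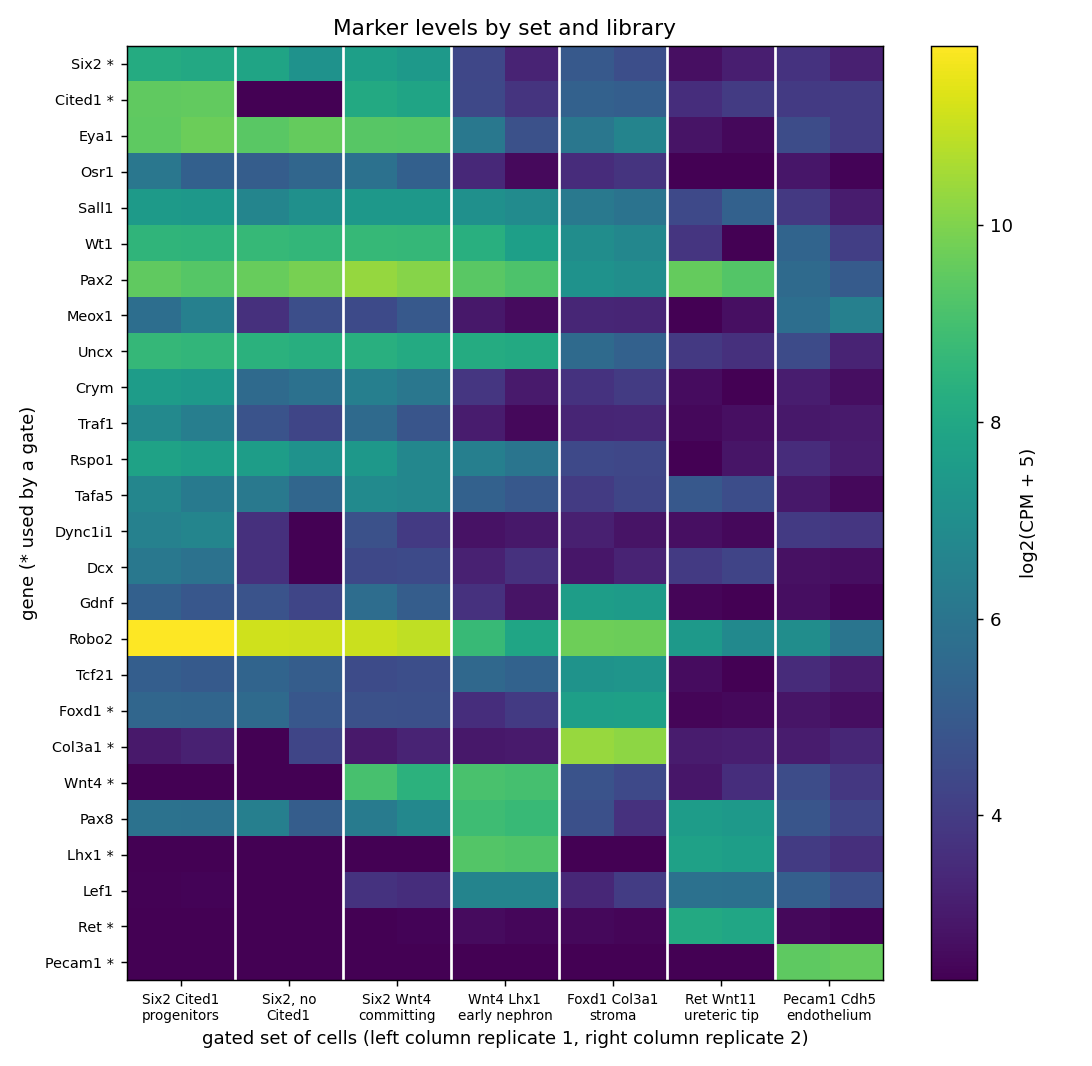
Expression as log2(CPM + 5) of 26 genes (rows) in the 7 cell sets of each library (columns, replicate 1 and replicate 2), with * for genes that a set was chosen by. Read along a row, Cited1 peaks in the progenitors at 725 and 743 CPM, and Eya1 and Uncx are far above stroma there; levels of different genes cannot be compared.

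The label was checked against genes the rule did not use. Eya1, the coactivator that works with Six2, read 702 and 819 CPM in members (mean 761 ± 82.9, SD, n = 2) against 63.4 and 92.5 in stroma. Both members' values lay above both stromal values, and the log2 fold change was 3.27 ± 0.36 (SE, adjusted p = 6.11e-06). Its difference from committing cells did not pass, as given below, so Eya1 checks the label against stroma only. Markers of endothelium and stroma were lower in members than in those sets. The rules limited Pecam1 and Col3a1 in members and required them there, so these sums are a description and no check. The 6 endothelial markers summed to 18.3 and 27.1 CPM in members against 4170 and 4769 in endothelium, and the 8 stromal markers to 152 and 189 against 4172 and 4431 in stroma, with none of these genes at 0. Meis1, a homeobox gene of stroma, made up most of the stromal sum at 97.0 and 149 CPM. Stromal marker RNA was spread over the members: 188 of 235 and 172 of 182 held a UMI of these 8 genes. At least 3 such UMIs were held by 110 and 111 members, and the top cell gave 6.91% and 8.81% of them. The 5 macrophage and leukocyte markers summed to 10.2 and 0.956 CPM with 0 and 1 genes at 0 by library, the 6 ureteric markers to 56.9 and 67.8 with 1 gene at 0 in each library, and the 5 podocyte markers to 23.3 and 16.4 with none at 0.

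Some of this other RNA sat in single cells. In replicate 1 the 4 loop of Henle and distal markers summed to 179 CPM against 16.8 in replicate 2, and of the 744 UMIs of Slc12a1, the salt transporter of the loop, 412 (55.4%) came from 1 member and 94.2% from 5. Umod, the urinary protein uromodulin, had 165 UMIs, 86 of them in 1 cell, and Tyrobp, a leukocyte adaptor, had 34, of which 29 were in 1 cell. The erythroid markers summed to 527 and 700 CPM, and 61.1% and 87.4% of the UMIs of the beta-globin gene Hbb-bs lay in 1 cell of each library. The 6 proximal tubule markers summed to 213 and 81.4 CPM. No marker of these 3 lists was at 0, and their part in the results below was not tested.

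Transcription regulators separated the members from stroma much more than from committing cells. Against stroma, 14 of 17 tested regulators were higher and 1 was lower (median log2 fold change 1.45 against 0.03 over all genes), where 18.4% of all genes were called higher and 19.7% lower. Uncx, a homeobox gene, read 400 and 379 CPM against 44.3 and 33.8 in stroma (log2 3.36 ± 0.28, adjusted p = 4.82e-07). Wt1, which the cap needs in order to form, read 363 and 356 against 120 and 99.7 (log2 1.74 ± 0.30, adjusted p = 0.000389). Osr1, an early marker of kidney mesenchyme, read 63.5 and 32.7 against 6.58 and 8.63, and Sall1 read 176 and 163 against 67.6 and 56.3, and both were higher (adjusted p = 0.000378 and 0.00012). Tcf21 was the 1 lower gene, at 30.5 and 27.3 CPM against 141 and 150 (log2 -2.33, adjusted p = 5.16e-08).

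Against the committing cells, 2 regulators were higher and 2 lower of 17 (median log2 0.02), where 2.38% of all genes were called higher and 3.38% lower. Meox1, a homeobox gene, read 49.7 and 82.4 CPM against 17.1 and 26.6, with no overlap (log2 1.61 ± 0.21, adjusted p = 0.000432), although endothelium held it at a similar mean of 65.4. Tcf21 read 30.5 and 27.3 against 17.5 and 19.5 (log2 0.69, adjusted p = 0.0424), a call lost in 6 of the other settings. Pax2, the paired-box regulator that rises as nephrons form, read 717 and 631 CPM against 1289 and 1103 (log2 -0.81 ± 0.12, adjusted p = 0.00134), and it lost its call with marked doublets removed (log2 -0.82, adjusted p = 0.359). Mycn, a growth regulator, read 46.5 and 29.8 against 81.3 and 57.3 (log2 -0.85, adjusted p = 0.00267). Eya1 at 652 and 640 CPM, Wt1 at 407 and 394, and Osr1 at 54.0 and 32.3 in committing cells did not pass (adjusted p = 0.741, 0.867 and 0.874). Eya1 passed in 3 other settings (adjusted p from 0.00744 to 0.0441). Uncx, at 317 and 272 CPM in committing cells, did not pass (log2 0.43, adjusted p = 0.394) but did in 4 other settings (adjusted p from 1.65e-05 to 0.036). With only the 2 sets fitted, 5 regulators were higher and 2 lower.

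In all, 889 genes differed between members and committing cells, 367 higher (2.38% of all tested) and 522 lower (3.38%). These are the shares to set beside each list count against committing cells below. Committing cells were deeper, with medians of 22570.5 and 32798 UMIs against 17300 and 24049, and a Wnt4 UMI is easier to see in a deep cell. With every cell first thinned to 8000 UMIs and the sets rebuilt, a setting chosen after seeing the data, 682 genes were called, 476 of them among the 889, and 812 of the 823 measured calls kept their direction. A fit with no library block called 409 genes, and there the calls of Mycn, Tcf21, Crym, Rspo1, Dpf3, Robo2, Etv4, Spry4, Dusp6, Fgf1, Bmp4, Bmpr1b, Apcdd1, Fzd2, Tcf7l1, Lgr4, Notch1, Hey1, Hes1, Igf2, Top2a, Umod, Tyrobp, Col1a2 and Ier2 ended.

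Other markers of the cap mesenchyme were higher in members: 6 of 12 against committing cells with none lower (median log2 0.57 against 0.01 over all genes), a count that fell to 3 without the library block. Crym, a thyroid hormone binding protein, read 185 and 169 CPM (mean 177 ± 11, SD, n = 2) against 81.0 and 63.1 (log2 1.33 ± 0.19, adjusted p = 0.00105). Traf1, a signalling adaptor of the tumour necrosis factor receptors, read 107 and 78.0 against 43.9 and 23.5 (log2 1.49 ± 0.22, adjusted p = 0.00123). Both genes stayed apart in each library. Rspo1, an amplifier of Wnt signals, read 218 and 196 against 162 and 99.4 (log2 0.70, adjusted p = 0.0106, but 0.0883 at log2 0.71 with doublets removed). Pla2g7, Capn6 and Dpf3 were the other 3, at log2 1.06, 0.59 and 0.59 (adjusted p = 0.000448, 0.00274 and 0.0469).

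After thinning every cell to 3000 UMIs, Crym was found in 42.6% and 39.6% of members and in 0.443% and 0.167% of endothelial cells, whose medians were 11837 and 13628 UMIs. Unthinned, the shares were 90.6% and 89.6% of members against 2.07% and 1.17%. Crym was therefore above the level that free RNA gives to endothelium in both libraries.

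Ranked by their mean over the highest other set, with 5 CPM added to both, the genes that stood out most in members were Dync1i1, Dcx, Dock5, Btbd11, Col11a2 and Mgat4a, with ratios of 4.60, 3.01, 2.97, 2.77, 2.74 and 2.67. The next-highest set was the committing cells for each of these. The ranking uses sets picked by their genes, so it is a description. Dync1i1 (chr6:5725639-6028039, plus strand), an intermediate chain of the motor protein dynein, read 85.9 and 94.6 CPM (mean 90.2 ± 6.17, SD, n = 2) against 20.9 and 10.5 in committing cells, and the other 5 sets had means of 1.18 to 9.6. Dcx, a microtubule binding protein best known from migrating neurons, read 64.3 and 54.7 CPM against 15.6 and 17.2. Dock5, an exchange factor for Rac, read 338 and 334 against 118 and 101. Among the 20 genes were also Crym at 2.36, Pnmt, which makes adrenaline, at 2.28, and Fgf1 at 2.10.

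All 3 of Dync1i1, Dcx and Dock5 were higher in members than in committing cells, at log2 2.5 ± 0.24, 1.88 ± 0.24 and 1.64 ± 0.18 (adjusted p = 3.66e-05, 0.000432 and 0.000125). Thinned, Dync1i1 was found in 17.9% and 18.7% of members and in 2.22% and 3.01% of endothelial cells, against 45.1% and 37.4%, and 9.45% and 8.68%, unthinned.

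Of 9 genes that act between the cap and the ureteric bud, 3 were higher in members than in committing cells and 1 was lower. Gfra1, the GDNF coreceptor, read 206 and 199 CPM in members against 109 and 82.4 in committing cells (log2 1.10, adjusted p = 0.000221). Gas1, another gene of this list, read 429 and 427 against 273 and 232 (log2 0.78, adjusted p = 0.000396). Robo2, the receptor for Slit ligands (chr16:73891839-74411825, minus strand), read 3623 and 3613 against 2142 and 1926 (log2 0.85 ± 0.20, adjusted p = 0.0212, but 0.0533 at log2 0.86 with doublets removed). Slit2, the gene of a Robo2 ligand, was the lower gene, at 101 and 151 CPM against 517 and 584 (log2 -2.12 ± 0.15, adjusted p = 3.81e-06). The median log2 over the 9 was 0.58. Gdnf itself, the bud's growth signal, read 32.3 and 24.8 CPM in members, 47.8 and 29.8 in committing cells and 191 and 181 in stroma. It was lower than in stroma (log2 -2.72 ± 0.22, adjusted p = 3.12e-07), and its difference from committing cells did not pass (adjusted p = 0.383). With only the 2 sets fitted, Gdnf was called lower than in committing cells (log2 -0.43, adjusted p = 0.0364). Itga8, the integrin that brings Gdnf on, read 651 and 657 against 447 and 436 in committing cells and did not pass (log2 0.58, adjusted p = 0.17), though it passed in 4 other settings, with an adjusted p of 0.000135 on cells thinned to 3000 UMIs.

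Of 15 FGF genes, 3 were higher and 1 lower than in committing cells (median log2 0.11). All 4 respond to FGF signals: Etv4 read 92.5 and 104 CPM against 71.3 and 71.7 (log2 0.47, adjusted p = 0.037), Dusp6 31.6 and 23.3 against 19 and 16.4 (log2 0.64, adjusted p = 0.0127), and Spry4 12.9 and 12 against 5.53 and 5.16 (log2 1.27, adjusted p = 0.028). The feedback inhibitor Spry1 instead read 23.1 and 20.8 against 51.3 and 47.6 (log2 -1.15, adjusted p = 2.18e-05). Spry4 turned to log2 -0.01 on cells thinned to 3000 UMIs, where Dusp6 lost its call (log2 1.12, adjusted p = 0.269). Etv4 lost its call with marked doublets removed (log2 0.49, adjusted p = 0.0949). Without the library block all 3 higher calls ended. Among ligands, Fgf8 read 23.8 and 26.9 CPM in members and 21.4 and 29.2 in committing cells, with overlapping ranges (adjusted p = 0.99). Fgf20, a signal of the cap itself, read 12.2 and 6.5 against 0 and 0.771 in stroma and was higher in members (adjusted p = 0.000224).

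The BMP genes gave the most one-sided counts of the GDNF, FGF, BMP, Wnt and Notch lists: 8 of 17 were lower in members than in committing cells and 1 higher (median log2 -1.12 against 0.01 over all genes). The 4 Id genes, direct targets that block differentiation factors, were all lower. Id1 (chr2:152736251-152737410) read 21.1 and 19.9 CPM against 73.7 and 70.3 (log2 -1.80 ± 0.12, adjusted p = 2.88e-06), and Id2 (chr12:25093799-25097140, minus strand) read 38.0 and 52.2 against 227 and 291 (log2 -2.51 ± 0.14, adjusted p = 7.81e-07). Id3 read 185 and 190 against 426 and 402, and Id4 3.14 and 2.68 against 22.8 and 21.2 (log2 -1.13 and -2.89, adjusted p = 0.000117 and 0.000152). In each of the 4 the libraries of the groups lay far apart. The inhibitory Smads were lower too: Smad6 read 35.3 and 27.9 against 86.7 and 66.5, and Smad7 53.2 and 47.6 against 127 and 93.6 (adjusted p = 1.22e-05 and 1.62e-05). The ligand genes moved in opposite directions, Bmp7 higher at 62.4 and 50.5 against 32.0 and 31.9 (log2 0.84, adjusted p = 0.00572) and Bmp4 lower at 11.6 and 3.25 against 23.8 and 25 (log2 -1.67, adjusted p = 0.00884). Smad9, a receptor Smad outside the list, was among the lowest of all, at 1.66 and 2.68 against 29.1 and 28.9 (log2 -3.72 ± 0.38, adjusted p = 6.65e-05). The receptor gene Bmpr1b was the other lower gene, and without the library block 6 of the 17 were called lower.

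**Figure D2:**
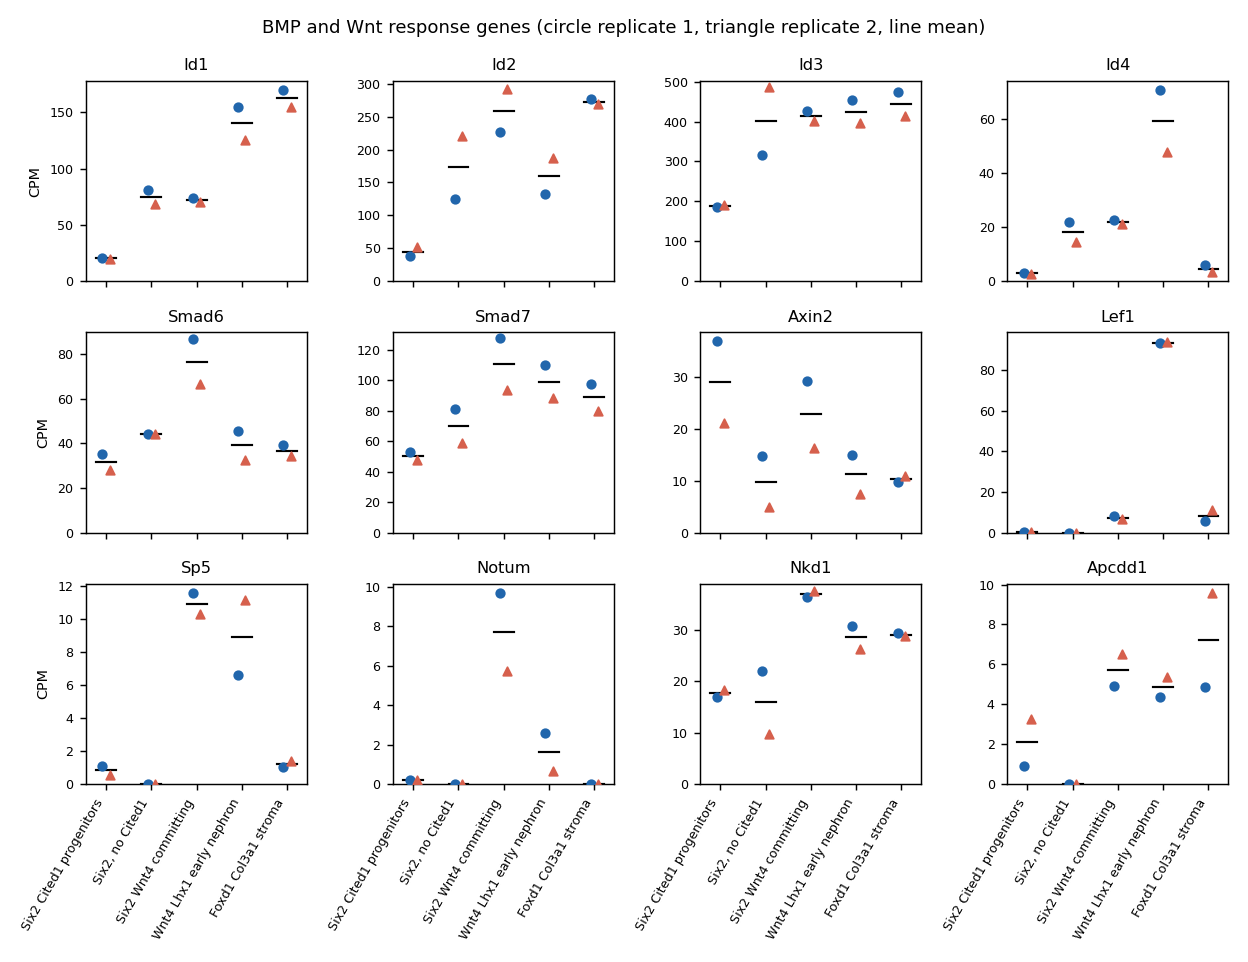
CPM of BMP response genes (Id1 to Id4, Smad6, Smad7) and Wnt response genes (Axin2, Lef1, Sp5, Notum, Nkd1, Apcdd1) in 5 cell sets, with a circle for replicate 1, a triangle for replicate 2 and a line at the mean. In the progenitors Id1 lies at 21.1 and 19.9 CPM against 73.7 and 70.3 in committing cells, and Axin2 at 36.9 and 21.0 against 29.3 and 16.2.

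Of 21 Wnt genes, 5 were lower in members than in committing cells (Lef1, Nkd1, Apcdd1, Notum and Sp5) and 4 higher (Fzd2, Lgr4, Tcf7l1 and Rspo3), with a median log2 of -0.02. Lef1, the effector that Wnt signals switch on, had 1 and 2 UMIs in members against 93 and 35 in committing cells, ratios in CPM of 0.0230 (95% interval 0.000576 to 0.131) and 0.0572 (0.00666 to 0.222). Notum, a secreted Wnt inhibitor, had 1 and 1 UMIs against 112 and 30, ratios of 0.0191 (0.000479 to 0.109) and 0.0333 (0.000817 to 0.201). Sp5, a transcription factor brought on by Wnt, had 6 and 3 UMIs in members, or 1.11 and 0.573 CPM against 11.6 and 10.3 (adjusted p = 0.000418). Nkd1, a feedback inhibitor, read 17.0 and 18.3 against 36.4 and 37.6 (log2 -1.05, adjusted p = 0.00114, but 0.301 at log2 -1.02 when thinned to 3000 UMIs). Apcdd1 read 0.923 and 3.25 against 4.92 and 6.5 (log2 -1.48, adjusted p = 0.0479), and its call ended in 3 other settings. Dkk1, a secreted Wnt inhibitor, had 1 and 10 UMIs in members and 10 and 3 in committing cells and did not pass (adjusted p = 0.819). The committing set was picked for Wnt4, so these genes are ones that differ along a step chosen by a Wnt gene. Axin2, a widely used Wnt target, read 36.9 and 21.0 CPM against 29.3 and 16.2, the groups overlapped, and no difference passed (log2 0.36, adjusted p = 0.432).

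Sp5 (chr2:70474923-70477729, plus strand) is shown with the 250 bases before its RefSeq start (chr2:70474673-70474922, GRCm38.p6), because it was among the 5 lower Wnt genes and its window holds a match to CTTTGAT, the core bound by TCF and LEF factors. Capitals mark the CTTTGAT and CCAAT matches.
Sp5: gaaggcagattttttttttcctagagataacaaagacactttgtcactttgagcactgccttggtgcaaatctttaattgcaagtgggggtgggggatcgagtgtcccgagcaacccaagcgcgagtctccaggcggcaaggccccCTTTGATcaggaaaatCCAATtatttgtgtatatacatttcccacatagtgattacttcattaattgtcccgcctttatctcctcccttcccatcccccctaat
A match is a description of the letters and does not show binding. Sp5 was picked partly for its match, and the windows of the other called Wnt genes are not given. The match therefore says nothing about the Wnt genes as a group. Among all windows, 3.21% held CTTTGAT on either strand.

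Among the Wnt genes that were higher, Rspo3, a secreted amplifier of Wnt signals, read 119 and 147 CPM against 38.2 and 38.6 (log2 1.78 ± 0.20, adjusted p = 0.000152). The receptor gene Fzd2 read 217 and 227 against 151 and 148 (adjusted p = 0.00534). Tcf7l1, a TCF that represses targets in the absence of Wnt, read 309 and 314 against 244 and 191 (adjusted p = 0.0247). Lgr4, the R-spondin receptor, read 110 and 133 against 79.5 and 91.3 (adjusted p = 0.048), and its call ended in 5 other settings.

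Early nephron genes were mostly lower or did not pass: 5 of 20 lower and 1 higher than in committing cells (median log2 -0.60). Cdh6, a cadherin of the renal vesicle, read 25.1 and 19.3 CPM against 118 and 126 (log2 -2.44, adjusted p = 1.22e-05), and C1qtnf12, a secreted protein, read 62.2 and 88.5 against 349 and 330 (log2 -2.15, adjusted p = 0.000117). Jag1, a Notch ligand, read 3.69 and 3.63 against 13.9 and 9.94, and Ccnd1, cyclin D1, read 30.3 and 34.4 against 57.9 and 95 (adjusted p = 0.00127 and 0.0035). The calls of Jag1 and Ccnd1 ended on cells thinned to 3000 UMIs (log2 -1.15 and -0.73, adjusted p = 0.554 and 0.131). Pax8 read 55.0 and 52.8 CPM against 72.4 and 104 and did not pass (adjusted p = 0.128). It passed with no filter on low counts (log2 -0.69, adjusted p = 6.26e-06) and with only the 2 sets fitted (log2 -0.67, adjusted p = 0.00442).

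Of genes at 20 CPM or more in committing cells, Lsamp had the lowest log2 fold change of those called. Lsamp, a neuronal adhesion protein (chr16:39984361-42181679, plus strand), read 15.7 and 17.2 CPM against 430 and 284 (log2 -4.41 ± 0.31, adjusted p = 3.62e-06). Tenm4, a teneurin of cell contacts, read 39.2 and 53.3 against 416 and 418 (log2 -3.15, adjusted p = 0.000125), and Sorcs3, a sorting receptor, read 2.03 and 1.34 against 16.8 and 29.6 (log2 -3.72, adjusted p = 0.000418). Atp6v1g3, Sdk2, Scube3, 2610035D17Rik, Slc26a7, Smad9 and Id4 completed the 10 lowest. The 10 highest were Dync1i1, Col11a2, Zim1, Adamts6, Ocm, Dcx, Pgm5, AU015791, Adamts16 and Nell2.

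The Notch genes included the targeted gene. Rbpj read 100 and 99.0 CPM in members, 111 and 116 in committing cells and 65.8 and 62.3 in stroma, the compartment in which Foxd1 is active. It was higher than in stroma (log2 0.66, adjusted p = 0.000217), and its difference from committing cells did not pass (log2 -0.17, adjusted p = 0.413). The deposited counts give the whole gene and hold no reading of the deleted part, so these levels check no label. Of 22 Notch genes, 4 were higher and 3 lower than in committing cells (median log2 0.02). Notch1 was higher at 18.1 and 21.6 CPM against 12.8 and 10.7 (adjusted p = 0.0268), and Notch2 was lower at 62.8 and 52.8 against 96.3 and 109 (adjusted p = 0.00249). Hes1, a Notch target, read 202 and 123 against 108 and 76.1 (log2 0.82, adjusted p = 0.0125), while Hey1, another, read 5.17 and 5.54 against 10.5 and 10.9 (log2 -0.96, adjusted p = 0.0337). The call for Hey1 ended in 5 other settings (log2 -0.37, adjusted p = 0.825 with sets rebuilt on thinned cells), and that for Notch1 in 3 (log2 0.84, adjusted p = 0.391 there). Dll1, at 2.77 and 2.68 CPM against 1.04 and 1.34 (adjusted p = 0.0497), and Mfng were the other higher genes and both were scarce.

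Imprinted growth genes differed between members and committing cells, in both directions. Mest read 995 and 1176 CPM against 456 and 533 (log2 1.15, adjusted p = 7.29e-05). H19 read 50.1 and 136 against 231 and 420 (log2 -1.85, adjusted p = 0.000361), and Igf2 read 52.6 and 127 against 104 and 220 (log2 -0.85, adjusted p = 0.0304). Both H19 and Igf2 were higher in replicate 2 in members and in committing cells alike, and the Igf2 groups overlapped. The chromatin protein gene Hmga2, a marker of fetal stem cells, read 622 and 713 CPM in members, 622 and 619 in committing cells and 159 and 147 in stroma (log2 2.15 against stroma, adjusted p = 7.17e-08). Of 12 growth and timing genes, 1 was higher and 2 lower than in committing cells.

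Few energy metabolism and adhesion genes were called. On such short lists this lies near the shares over all genes, 2.38% higher and 3.38% lower, so it is no result about the members. Of 15 glycolysis genes, only Hk1 was higher than in committing cells, at 42.7 and 34.0 CPM against 25 and 25 (log2 0.63, adjusted p = 0.0136), and of 14 oxidative phosphorylation subunits none was called (median log2 -0.07 and -0.17). The call for Hk1 ended on cells thinned to 3000 UMIs (log2 0.56, adjusted p = 0.579) and with sets rebuilt on thinned cells (log2 0.95, adjusted p = 0.0860). None of 16 adhesion and structure genes was called. Of 13 immediate early and heat shock genes, which respond to tissue dissociation, Ier2 alone was higher (adjusted p = 0.0125). Among the markers of other cell types 3 genes passed, all higher: Col1a2 (adjusted p = 0.0125), Umod (0.0148) and Tyrobp (0.0185). The single cells described above hold most Umod and Tyrobp UMIs, and Tyrobp turned to log2 -2.55 with sets rebuilt on thinned cells.

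Cell cycle genes were lower in members than in committing cells, 19 of 42 S phase genes and 22 of 52 genes of G2 and M with none higher (medians -0.56 and -0.57). Top2a, which untangles DNA before division, read 208 and 109 CPM against 316 and 274 (log2 -0.92, adjusted p = 0.00432), and Mki67, the usual mark of dividing cells, read 136 and 46.6 against 184 and 151 (log2 -0.96, adjusted p = 0.0198). Pcna, the clamp of DNA replication, read 63.0 and 96.9 against 107 and 149 (adjusted p = 0.024). Without the library block the counts were 1 and 4, and on cells thinned to 3000 UMIs they were 6 of 42 and 13 of 48. After thinning to 3000 UMIs, at least 3 UMIs of the G2 and M list were found in 80.9% and 82.4% of members, 91.3% and 94.2% of committing cells, 79.7% and 81.0% of stroma and 76.2% and 77.3% of endothelium. For the S list the shares were 71.5% and 78.0% of members and 86.0% and 87.4% of committing cells. The summed G2 and M level of barcodes with at most 100 UMIs, which hold free RNA, was 3008 and 2440 CPM, against 3747 and 2419 in members, and the part of free RNA in these shares was not tested.

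**Figure D3:**
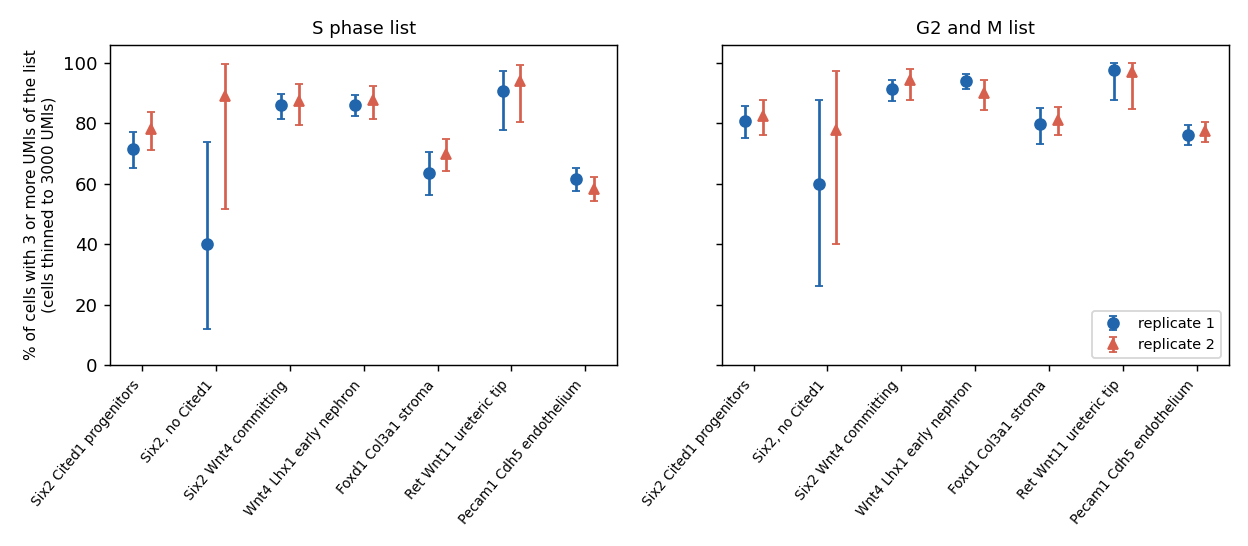
Percent of cells with at least 3 UMIs of the S phase list and of the G2 and M list in each set after thinning every cell to 3000 UMIs, per library, with bars for 95% exact binomial intervals. Progenitors lie at 80.9% and 82.4% for the G2 and M list and committing cells at 91.3% and 94.2%.

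Six2 cells with no Cited1 UMI were few, 19 in all with sums of 135692 and 203585 UMIs, and 49 genes differed from members: 32 higher in members, which is 0.207% of all genes, and 17 lower, which is 0.11%. The median over all genes was itself shifted by log2 0.25, and DESeq2, which changes both the scaling and the test, called 49 genes higher and 166 lower. The 5 erythroid markers summed to 33023 and 103 CPM in the cells without Cited1 against 527 and 700 in members, and the endothelial markers to 66.3 and 54.0 against 18.3 and 27.1. Their part in these calls was not tested. The BMP targets again lay on the lower side. Id1 read 21.1 and 19.9 CPM in members against 81.1 and 68.8 (log2 -1.78, adjusted p = 0.0216), Id2 38.0 and 52.2 against 125 and 221 (log2 -1.89, adjusted p = 0.00842), and Id3 185 and 190 against 317 and 486 (log2 -1.05, adjusted p = 0.0129). These were the 3 called of 17 BMP genes. The 3 calls ended on cells thinned to 3000 UMIs, at log2 -0.61 for Id1, -1.65 for Id2 and -0.63 for Id3. With sets rebuilt on thinned cells, Id1 (log2 -1.36, adjusted p = 0.549) and Id2 (log2 -0.71, adjusted p = 0.775) also lost their calls. Slit2 was lower in members as well, at 101 and 151 against 597 and 555 (log2 -2.11, adjusted p = 0.000174), as was Nckap5 at 33.8 and 41.9 against 464 and 324 (log2 -3.26, adjusted p = 0.000174).

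On the higher side in members stood Dock5, at 338 and 334 against 29.5 and 63.9 (log2 2.82, adjusted p = 0.02), Btbd11 at 540 and 691 against 111 and 142 (log2 2.34, adjusted p = 0.00513), and Mgat4a, a sugar transferase, at 161 and 137 against 22.1 and 29.5 (log2 2.55, adjusted p = 0.0048). Dync1i1 had 465 and 495 UMIs in members and 1 and 0 in the cells without Cited1. That is a CPM ratio of 11.7 (95% interval 2.08 to 461) in replicate 1 and at least 6.42-fold higher in replicate 2 against a floor of 3 counts per library. Gfra1 and Gas1 of the GDNF list, Cdh4 of the early nephron list, Mest of the growth list, and Hmgb2, Top2a and Tmpo of the G2 and M list were also higher, while H19 was lower at 50.1 and 136 against 302 and 457 (log2 -2.01, adjusted p = 0.0139). No progenitor regulator or cap marker was called, and among other cell type markers only the beta-globin gene Hbb-bt was, lower in members. With only the 2 sets fitted, 5 of 12 cap markers were higher and 1 lower, and 1 of 17 regulators was higher, among 291 genes called. With no filter on low counts these numbers were 5, 1 and 1, among 319 genes called. With sets rebuilt on thinned cells, Crym (log2 1.65, adjusted p = 0.0179) and Traf1 (log2 3.04, adjusted p = 0.00751) were called higher. These 2 sets were compared on very few cells, and 10 of the 22 calls among the named genes ended with marked doublets removed, Dock5, Btbd11, Dync1i1, Gfra1 and Cdh4 among them. With sets rebuilt on thinned cells 46 genes were called, 18 of them among the 49. Dock5 was then at log2 0.76 (adjusted p = 0.266), Gfra1 at 0.80 (0.396), Top2a at 0.54 (0.874) and H19 at -1.31 (0.0503). Mgat4a lost its call on cells thinned to 3000 UMIs (log2 2.47, adjusted p = 0.117).

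Against stroma, the neighbouring mesenchyme, cap markers were mostly higher. Of 12 other cap markers, 10 were higher in members and 2 lower (median log2 2.53), where 18.4% of all genes were called higher and 19.7% lower. The 12 markers nevertheless summed to 3052 and 3301 CPM in members and to 3488 and 4470 in stroma. Crym read 185 and 169 CPM against 7.97 and 10.8 (log2 4.13, adjusted p = 3.82e-08), and Spock2, a matrix protein, read 392 and 355 against 40.5 and 36.5 (log2 3.28, adjusted p = 2.8e-08), while Itga9 and Gpc3 were lower. Of 21 Wnt genes, 10 were higher and 6 lower, and Dkk1, a secreted Wnt inhibitor, was among the lower ones with 1 and 10 UMIs in members against 174 and 126 CPM in stroma. Ogn, a matrix proteoglycan, read 0.739 and 0.191 CPM against 248 and 205 (log2 -8.83, adjusted p = 1.65e-10). The growth gene Dlk1 read 0.554 and 0.382 against 154 and 93.7. The 8 stromal markers were all lower (median log2 -6.06) with Col3a1 limited in members and required in stroma by the rules. Of 52 G2 and M genes, 45 were lower than in stroma, while the shares of cells with at least 3 UMIs of that list were 80.9% and 82.4% in members and 79.7% and 81.0% in stroma. With at least 5 UMIs they were 45.1% and 54.4% against 55.2% and 57.7%.

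Stress genes also differed from stroma, with 8 of 13 lower, such as Egr1 at 28.4 and 10.3 CPM against 91.5 and 66.6 (adjusted p = 0.000127), and 1 higher. Of the other lists, FGF genes split 8 higher and 5 lower of 15, BMP genes 2 and 8 of 17, and early nephron genes 7 and 6 of 20. Notch genes split 6 and 5 of 22, growth genes 5 and 5 of 12, glycolysis 5 and 1 of 15, and adhesion 1 and 7 of 16. GDNF genes split 4 and 3 of 9 and S phase genes 4 and 8 of 42. Over all genes, 18.4% were called higher and 19.7% lower, and the lower counts of the Notch and S phase genes lay near the latter. No oxidative phosphorylation subunit was called.

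Foxd1, the gene that carries the Cre, was not at background in members. It was used to pick the stroma set, so its levels are a description. It read 38.8 and 37.5 CPM in members, 20.4 and 19.7 in committing cells, 203 and 207 in stroma, and a mean of 1.84 in endothelium. Unthinned, 104 of 235 and 92 of 182 members held a Foxd1 UMI (44.3% and 50.5%), against 2.22% and 1.84% of endothelial cells. Thinned to 3000 UMIs, the shares were 12.8% and 9.34% against 1.03% and 0.167%. Whether Cre was active in these cells was not tested.

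Among the members, the genes with the highest ratio of variance to mean over cells thinned to 3000 UMIs were those of globin, with Hbb-bs at 111 and 105, Hba-a1 at 70.8 and 73.4, Hba-a2 at 65.8 and 71.2 and Hbb-bt at 12.4 and 7.90. By the lower value of the libraries, next came the nuclear RNA Malat1 at 6.22 and 9.34, the histone gene Hist1h1b at 10.4 and 4.97, Gm42418 at 11.3 and 4.89, Robo2 at 3.86 and 3.91, and the mitotic gene Cenpf at 3.81 and 4.05. Mean UMIs per thinned cell were 34.1 and 40.9 for Malat1, 54.7 and 18.1 for Gm42418 and 9.86 and 11.1 for Robo2. They were 0.694 and 0.907 for Hist1h1b and 0.366 and 0.0604 for Cenpf. At equal relative variation the ratio is larger for a gene with a higher mean, so this order does not rank relative variation. The percent of a member's UMIs that fell on the G2 and M list had a median of 0.140 in both libraries, and its 90th percentile was 0.853 in replicate 1 and 0.359 in replicate 2.

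The libraries were close to each other. Across 6993 genes at 20 CPM or more in members, log2 levels correlated at r = 0.979, a value across genes, which are not independent replicates. Of these genes 37 were more than 2-fold higher in replicate 1 and 17 in replicate 2. Cenpf read 172 and 36.7 CPM, Slc12a1 137 and 9.56, and the receptor gene Il11ra1 57.8 and 10.1. Toward replicate 2 lay the guidance receptor gene Plxna4 at 16.1 and 92.3, Eya2 at 38.2 and 102, and H19 and Igf2. With 1 library on each side these differences have no replicate check.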

How the data were processed

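Raw gene-by-barcode matrices, with UMI counts per gene (unit: counts, as deposited by the authors), were read. The submitters' processing notes name Cell Ranger 6.0.1 and mm10, while the matrix header gives software version 4, per the file headers; filters and read trimming are not given in the sources used here. Barcodes with 3000 UMIs, 500 genes and at most 20% mitochondrial UMIs were kept; the intervals on shares are Clopper-Pearson exact. Doublets were not removed; Scrublet in scanpy 1.11.5, at 0.8% per 1000 cells, was used as an alternative.

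Cells of each set were summed per library (14 sums) and tested with edgeR 4.0.16 (R 4.3.3, limma 3.58.1): quasi-likelihood, TMM, with library as a block because the sets of a library come from the same sample, 6 residual degrees of freedom, Benjamini-Hochberg over 15437 genes left by a filter on low counts. Python 3.11.15 was used elsewhere. Tested on simulated data over 15447 genes, the step recovered 73 of 100 2-fold and 99 of 100 4-fold changes against committing cells. It recovered 65 and 97 against stroma, and 12 and 55 against Six2 cells without Cited1. The simulation gave every set the same gene proportions otherwise and every gene the same spread. It changed only genes above a floor of counts, so these rates do not cover the scarcest genes. Named genes were all members of the gene lists, the 10 largest changes in each direction per comparison at 20 CPM or more, and the 20 highest ratios to the next set. Members, lists and sets were chosen with earlier results of these data known. DESeq2 1.42.0, no low-count filter, no block, other gates, depth cuts and thinning were alternatives; gates on cells thinned to 8000 UMIs were added after seeing the data. Whether counting used strand is not given, so overlapping and antisense genes are uncertain. Promoter windows come from RefSeq (GRCm38.p6), gene positions from GENCODE on GRCm38.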

Additional observations from a re-analysis of the deposited data

How the results depend on the processing

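The number of genes called against committing cells, 889, became 1494 with no low-count filter, 1787 with only the 2 sets compared, 409 with no replicate block and 426 on cells thinned to 3000 UMIs, and lay within 1.5 times of it under the other settings. Against Six2 cells without Cited1 the 49 became 319, 291 and 107 under the first, the second and the thinned setting and 215 with DESeq2, of which 49 were higher. Against stroma the 5884 became 2823 thinned and 3701 with gates on thinned cells. Of the named calls against committing cells, 25 ended with no replicate block, 17 on thinned cells and 10 with doublets removed. Spry4 turned to log2 -0.0102 when thinned, and Tyrobp to -2.55 with gates on thinned cells and ranged from 0 to 4.55 by leaving out each replicate. The share of cells that were progenitors was 4.88% at 8000 UMIs, 3.58% with the stricter gate, 4.93% with the looser, 4.37% with doublets removed and 3.70% with thinned gates, and 4.25 to 4.33% by leaving out each replicate. The share of members with G2 and M UMIs was 99.8% unthinned, 100% at 8000 UMIs, 91.0% at 2 UMIs and 49.8% at 5 UMIs, and 80.9 to 82.4% by replicate. Fits without a replicate leave no residual degrees of freedom and have no test. Against the 19 Six2 cells without Cited1, simulated 2-fold changes were recovered in 12 of 100 genes and 4-fold changes in 55. The causes of these changes were not tested.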
